A study of Quercus lobata with 12 samples.

Results

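The 8 leaf RNA libraries described here come from 2 maternal families of valley oak (Quercus lobata), HV-11 and YORK-09, with 4 seedlings each. They were taken as every seedling whose label carries 1 of these family names, which makes 8 of the 12 seedlings sequenced. The other 4 belong to the family LAY-15 and are given beside them as a description. The question is which genes differed in leaf transcript level between the families, with treatment and RNA extraction held as covariates.

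HV-11 was represented by seedlings HV-11-05 (control) and HV-11-33 (5-Azacytidine), extracted early on day 19 of October, and by HV-11-34 (control) and HV-11-40 (5-Azacytidine), extracted late on day 30. YORK-09 was represented by YORK-09-03 (control) and YORK-09-08 (5-Azacytidine), extracted early on day 16, and by YORK-09-10 (control) and YORK-09-37 (5-Azacytidine), extracted late on day 30. In LAY-15, LAY-15-30 (control) and LAY-15-34 (5-Azacytidine) were extracted early on day 19, and LAY-15-03 (control) and LAY-15-09 (5-Azacytidine) late on day 30. 5-Azacytidine is a cytosine analog that lowers DNA methylation. It was sprayed on the leaves for 27 days at 50 µM in the surfactant TWEEN 20, and control seedlings received the surfactant alone. All seedlings were about 5 months old at the start, were pruned back to a common height and grew in a growth chamber, with treated and control plants kept apart. Leaves were collected when the spraying ended and RNA was extracted months later, so early and late name RNA extraction days and not ages of the plants. The families sequenced had been picked for a strong contrast in appearance between treated and control plants. Each family is the offspring of 1 wild, open-pollinated tree, from Hidden Valley for HV-11 and from York Mountain Road for YORK-09, so family, mother tree and locality cannot be told apart. Late extractions shared a day between the families, but early ones did not, so that family and day cannot be told apart among the early seedlings. Each extraction day of a family also stands for its own 2 plants, so that extraction and plant cannot be told apart within a family either.

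Seedlings of such a family share a mother and can have different pollen fathers. At each gene they all carry 1 of the mother's alleles, and siblings need not carry the same one. Oaks are outcrossing trees with much allelic variation, and the transcript level of a plant gene can be inherited with nearby variants, or vary with the age and condition of a leaf. A difference between families is therefore a difference in group averages of genetically different plants, not between copies of 2 genotypes.

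The files give gene identifiers without names, and 0 rows of the RefSeq gene table of the species (assembly ValleyOak3.2) matched them. No function, sequence or tissue marker is therefore given, and 4 genes, the first 2 by p-value in each direction, are named by identifier alone. Counted reads per seedling ran between 10733171 and 11567589 in HV-11 and between 10285676 and 11570198 in YORK-09 (two-sided exact permutation test over 70 groupings, p = 0.543). Genes with at least 1 count numbered 25687 to 27483 in HV-11 and 26090 to 27122 in YORK-09 (exact p = 0.771). The 10 most counted genes held 6.001% to 10.4% of the reads in HV-11 and 5.27% to 11.1% in YORK-09 (exact p = 0.971), and the smallest p-value that 4 against 4 can give is 0.0286. Of 39373 genes in the table, 22772 passed the filter on low counts and were tested. Levels are given as CPM, read counts scaled to the library total and TMM factor, which are not corrected for gene length.

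Single genes had levels far apart in the 2 families, but no gene passed the main test. With edgeR's quasi-likelihood test and treatment and early or late extraction as covariates, 0 genes (0.0% of those tested) had an adjusted p-value under 0.05, and the smallest adjusted p-value was 0.113. At an unadjusted p-value under 0.05 there were 1668 genes (7.32%), 860 higher in HV-11 (3.78%) and 808 lower (3.55%). DESeq2 with the same model called 514 genes at an adjusted p-value under 0.05 (2.26%), 231 higher in HV-11 (1.01%) and 283 lower (1.24%), and 2662 genes had an unadjusted p-value under 0.05. Of the 514 genes, 496 were also at an unadjusted p-value under 0.05 in edgeR. The DESeq2 count fell to 316 without seedling YORK-09-03. The biological coefficient of variation, the spread between seedlings beyond counting error, was 0.634 in the fitted model, 0.616 among the HV-11 seedlings and 0.626 among the YORK-09 seedlings. The values of the single families were computed without treatment and extraction as covariates, so they are not the same measure as that of the fitted model. In bulk leaf RNA, fewer cells of a type and less RNA per cell cannot be told apart.

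For 1166 genes (5.12% of those tested) the CPM of the 4 HV-11 seedlings did not overlap with that of the 4 YORK-09 seedlings. HV-11 was the higher family in 557 of them (2.45%) and the lower in 609 (2.67%). With any 1 seedling left out, 3 against 4 seedlings, the count was 1736 to 2310, more than 1.5 times as many without each seedling but YORK-09-03. Of the 514 genes called by DESeq2, 327 (63.6%) were without overlap, and of the 1668 at an unadjusted edgeR p-value under 0.05, 773 (46.3%) were. Both lists rest on the same 8 seedlings, so their overlap is a description.

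QL05p000021 had the smallest edgeR p-value among genes higher in HV-11. Its level was 18.2, 11.3, 17.2 and 20.6 CPM in HV-11-05, HV-11-33, HV-11-34 and HV-11-40, against 0.0828, 0.0820, 0.103 and 0 CPM in YORK-09-03, YORK-09-08, YORK-09-10 and YORK-09-37. The raw counts were 213, 121, 207 and 235 in HV-11 and 1, 1, 1 and 0 in YORK-09, so the transcript was counted in every HV-11 seedling and was at or near 0 in every YORK-09 seedling. The ratio of the summed levels was 251 with a 95% interval of 85.4 to 1218 that covers counting error only. The log2 fold change of HV-11 over YORK-09 was 7.75 ± 0.62 (SE), with an adjusted p-value of 0.113 from edgeR and 1.39e-13 from DESeq2. Without covariates, edgeR's adjusted p-value for it was 0.00900, and with treatment as the only covariate it was 0.0396. Over the 20 edgeR alternatives together, it ran from 0.00900 to 1.00. With all 12 seedlings and the 3 extraction days as covariate, where day 16 holds YORK-09 alone, the log2 fold change was 9.85. Among the LAY-15 seedlings the gene was counted in LAY-15-09 alone, with 120 counts, and had 0 counts in the other 3.

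QL10p065704 followed in the same direction and was counted in all 8 seedlings. Its level was 71.8, 23.8, 12.8 and 12.7 CPM in HV-11-05, HV-11-33, HV-11-34 and HV-11-40, against 1.903, 1.80, 1.03 and 1.05 CPM in the YORK-09 seedlings in the order above. The early HV-11 seedlings were above the late ones, and the lowest HV-11 seedling was well above the highest YORK-09 seedling. The log2 fold change was 4.12 ± 0.43 (SE), with an adjusted p-value of 0.281 from edgeR and 2.79e-14 from DESeq2. In late seedlings alone it was 3.62 and in early seedlings alone 4.49. The LAY-15 seedlings ranged from 0.503 to 9.59 CPM, all below the lowest HV-11 seedling, and the lowest of them was below every YORK-09 seedling.

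QL10p009474 had the smallest p-value of all genes tested and was lower in HV-11. Its level was 27.6, 11.1, 9.97 and 7.36 CPM in the HV-11 seedlings, against 242, 149, 130 and 118 CPM in the YORK-09 seedlings. In both families the early control seedling was the highest, and the groups were far from overlapping. The log2 fold change was -3.62 ± 0.26 (SE), with an adjusted p-value of 0.113 from edgeR and 3.34e-32 from DESeq2. It was -3.83 in late seedlings, -3.43 in early seedlings and -2.32 with all 12 seedlings and the 3 extraction days as covariate. All 4 LAY-15 seedlings, at 0.708 to 17.7 CPM, were below every YORK-09 seedling.

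QL04p089617 was the second lower gene by p-value. It had 1, 2, 2 and 1 counts in the HV-11 seedlings, against 83, 60, 24 and 57 counts in the YORK-09 seedlings. The mean level was 0.131 ± 0.053 CPM in HV-11 and 4.92 ± 1.83 CPM in YORK-09 (SD, n = 4 each), which puts the HV-11 libraries at the limit of detection. The log2 fold change was -5.07 ± 0.60 (SE), with an adjusted p-value of 0.281 from edgeR and 3.67e-07 from DESeq2. Without covariates its adjusted p-value from edgeR was 0.0474, and with all 12 seedlings and the 3 extraction days the log2 fold change was -4.01. The LAY-15 seedlings had between 0 and 4 counts.

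**Figure D1:**
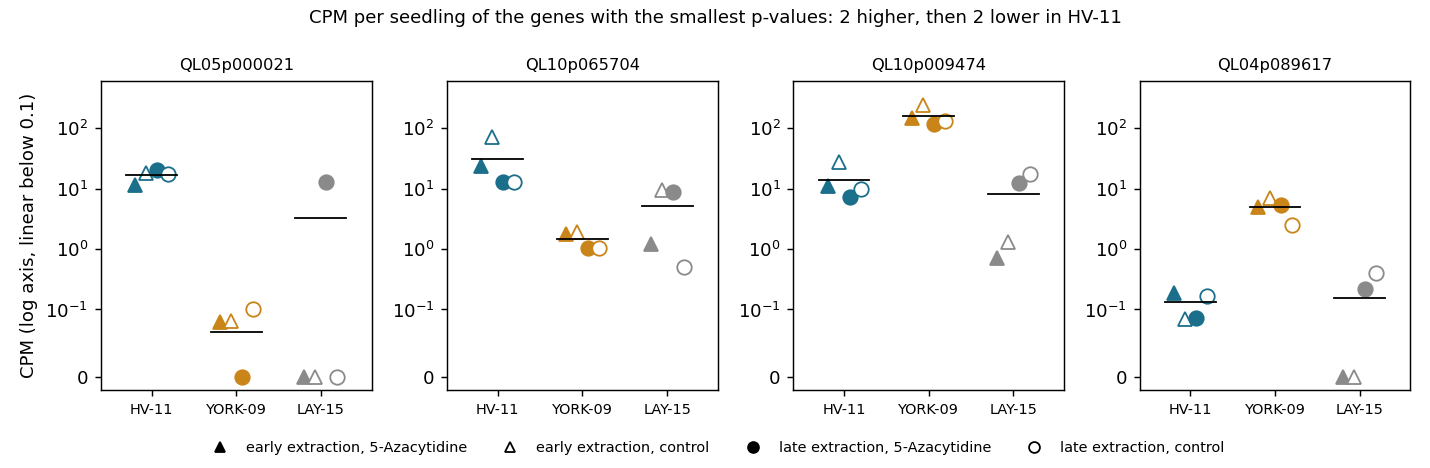
CPM of the 4 identified genes in each seedling (vertical log axis, linear below 0.1 CPM) for HV-11, YORK-09 and LAY-15, with triangles for early and circles for late seedlings, filled for 5-Azacytidine and open for control, and a line at each family mean. HV-11 and YORK-09 do not overlap in any panel, while LAY-15 spans from 0 to 12.9 CPM for QL05p000021 and from 0.503 to 9.59 CPM for QL10p065704.

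The 10 genes higher in HV-11 with the smallest p-values had log2 fold changes between 2.94 and 7.87, and edgeR's adjusted p-values reached 0.412. DESeq2 called 9 of the 10, and in 9 of the 10 the families did not overlap. All 10 were higher in HV-11 in late and in early seedlings taken alone. The 10 were chosen by p-value from these same seedlings, so these counts follow largely from the choice. The third gene had 92, 78, 108 and 41 counts in the HV-11 seedlings, against 1, 0, 0 and 0 counts in the YORK-09 seedlings. It stands next to QL05p000021 in the order of identifiers and was likewise counted in LAY-15-09 alone among the LAY-15 seedlings, with 83 counts. The fifth gene was counted in every library, with 12.6, 15.1, 21.7 and 29.6 CPM in the HV-11 seedlings, against 0.828, 2.296, 3.72 and 4.48 CPM in the YORK-09 seedlings. The late seedlings were the higher ones in both families, and LAY-15 lay between them at 4.93 to 6.27 CPM, just above YORK-09. The seventh gene had 141, 48.2, 49.9 and 32.4 CPM in the HV-11 seedlings, against 2.73, 1.48, 3.20 and 3.71 CPM in the YORK-09 seedlings. LAY-15, at 2.32 to 5.15 CPM, was near YORK-09 for this gene.

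The exception among the 10 was the ninth gene. It had 131 and 120 counts in the early HV-11 seedlings and 0 and 1 in the late ones, against 0, 1, 0 and 0 counts in the YORK-09 seedlings. Its families overlapped, DESeq2 gave it an adjusted p-value of 0.0548, and edgeR's was 0.330. In LAY-15 it had 183 and 99 counts in the 5-Azacytidine seedlings and 0 and 2 in the controls, so where it was counted followed neither extraction nor treatment across the 3 families.

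The 10 genes lower in HV-11 with the smallest p-values had absolute log2 fold changes between 1.57 and 7.72, with adjusted p-values up to 0.293 in edgeR. DESeq2 called all 10, the families did not overlap in any of them, and all 10 were lower in HV-11 in late and in early seedlings alone. Here too the counts follow largely from the choice by p-value in the same seedlings. With all 12 seedlings and the 3 extraction days, the log2 fold change of the eighth gene was -0.33, against -2.90 in the 8 seedlings. That of the ninth was -1.37, against -2.90. In that fit day 16 holds YORK-09 alone. In late seedlings alone, extracted on day 30 in both families, the values were -2.24 for the eighth gene and -2.35 for the ninth. In LAY-15 the eighth gene had 56.7 and 60.3 CPM in the late seedlings and 0 and 0.81 CPM in the early ones. The fifth gene had 18.3, 5.60, 26.2 and 8.58 CPM in the HV-11 seedlings, against 445, 368, 235 and 121 CPM in the YORK-09 seedlings. The control seedling was above the 5-Azacytidine seedling of its extraction day in both families, and the log2 fold change of -4.38 ± 0.55 (SE) was -3.47 late and -5.30 early. The smallest fold of the 10 belonged to the seventh gene. It had 35.2, 27.99, 37.6 and 21.6 CPM in the HV-11 seedlings, against 99.3, 102, 83.7 and 78.6 CPM in the YORK-09 seedlings, a ratio of 2.99 lower in HV-11 with little spread in either family. The tenth gene had 3.40 ± 0.23 CPM in HV-11 and 17.8 ± 5.33 CPM in YORK-09 (SD, n = 4 each). LAY-15 was at 14.2 to 24.9 CPM for this gene, at the level of YORK-09.

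Genes at an unadjusted edgeR p-value under 0.05 were spread over the whole range of levels, but their folds were larger at low levels. Among the 860 genes higher in HV-11 at an unadjusted edgeR p-value under 0.05 the median absolute log2 fold change was 1.43, with quartiles of 0.94 and 2.53. Among the 808 lower genes it was 1.64, with quartiles of 1.00 and 2.93. Over all genes tested the median absolute log2 fold change was 0.35 and the median log2 fold change 0.01, which TMM scaling sets near 0. Of the 1668 genes, 1221 had an absolute log2 fold change over 1 and 355 over 3. The share at an unadjusted p-value under 0.05 was 8.16% below 1 CPM, 7.26% from 1 to 10 CPM, 7.46% from 10 to 100 CPM and 6.05% at 100 CPM and above. The median absolute log2 fold change of these genes was 3.96, 2.05, 1.06 and 1.00 in the same ranges. A gene with few counts needs a larger fold to reach such a p-value, so this fall follows at least in part from the choice. DESeq2 called 0.919%, 2.51%, 2.40% and 1.53% of the genes in these ranges. Of the 514 DESeq2 genes, 265 had at least 10 counts in each of the 8 seedlings. Of the 22772 genes tested 16131 did, a larger share.

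**Figure D2:**
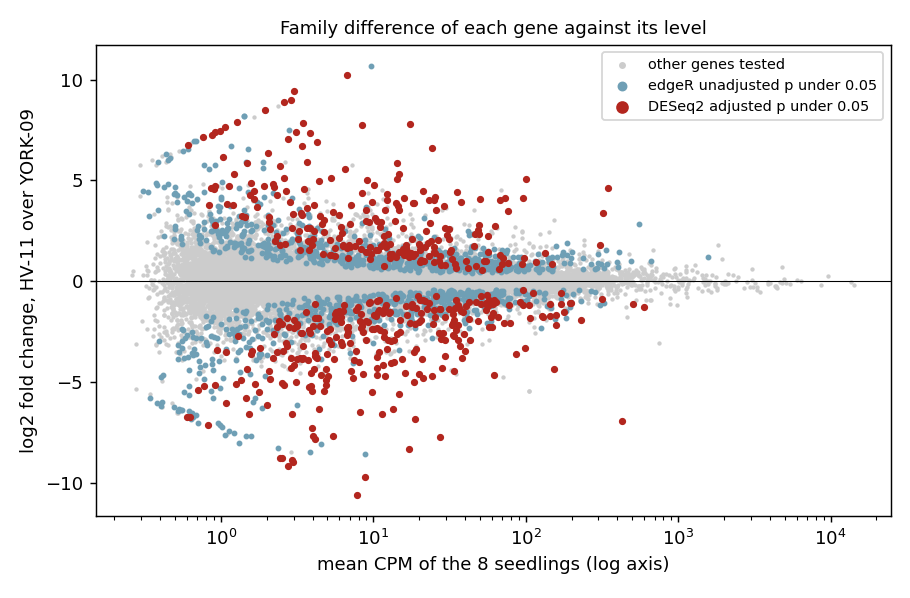
Log2 fold change of HV-11 over YORK-09 against the mean CPM of the 8 seedlings (log axis), 1 point per gene tested, with genes at an unadjusted edgeR p-value under 0.05 in blue and the 514 genes called by DESeq2 in red. Called genes lie on both sides of 0 over most of the range of levels. The 107 genes at 100 CPM and above with an unadjusted p-value under 0.05 had a median absolute log2 fold change of 1.00. The 151 such genes below 1 CPM had a median of 3.96.

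Over all genes, the family difference in late seedlings was barely related to that in early seedlings. These are separate plants, 2 of each family at each extraction, so the fold changes come from disjoint samples. Across the 22772 genes the late and early log2 fold changes had a Pearson r of 0.0942 and a Spearman rho of 0.0148, and 49.0% of genes had the same direction in both. Across the 11880 genes with a mean of at least 10 CPM, r was 0.0278 and 47.5% had the same direction. Genes are not independent replicates, and the early seedlings of the families were extracted on different days.

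In late seedlings alone, 1726 genes (7.58%) had an unadjusted edgeR p-value under 0.05, 1067 higher and 659 lower in HV-11. In early seedlings alone there were 2184 (9.59%), 745 higher and 1439 lower. HV-11 was thus the higher family in most of the late genes and the lower family in most of the early genes. Of the 1726 late genes, 51.9% had the same direction in early seedlings, and of the 2184 early genes, 50.8% had the same direction in late seedlings. The shares were similar among genes with large folds. Of the 662 late genes with an absolute log2 fold change over 3, 50.3% had the same direction in early seedlings, and of the 854 such early genes, 53.6% had the same direction in late seedlings. A total of 405 genes passed in both, which is 23.5% of the late and 18.5% of the early genes. Of these, 211 had the same direction, 94 higher and 117 lower in HV-11, and 194 had opposite directions. The 211 genes hold 170 of the 514 DESeq2 genes, and 134 of them had no overlap between the families. The fit of 8 seedlings uses both, so that most of its own genes had the same direction in each by choice.

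**Figure D3:**
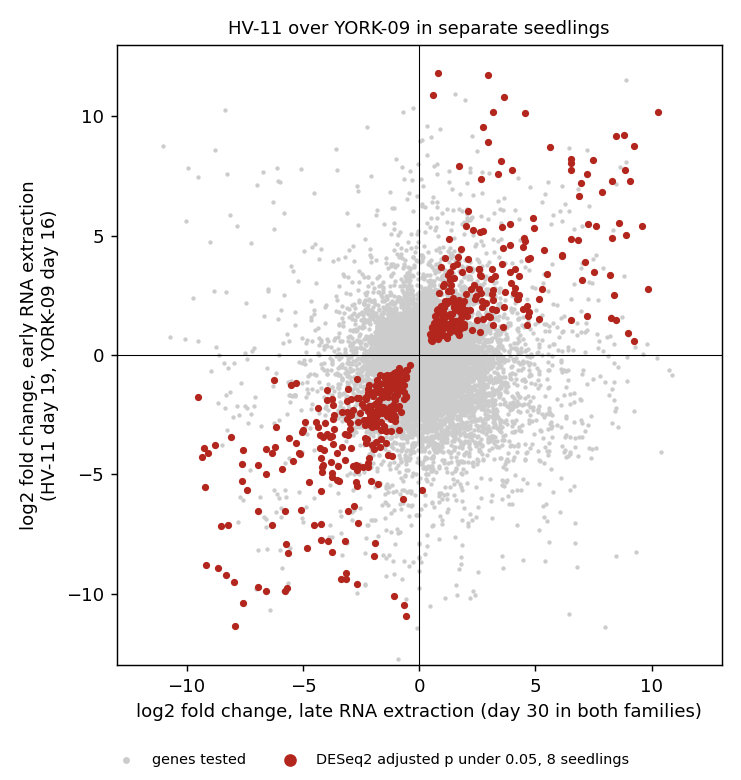
Log2 fold change of HV-11 over YORK-09 in early seedlings (vertical axis) against late seedlings (horizontal axis), 1 point per gene tested, with the 514 genes that DESeq2 called in all 8 seedlings in red. The cloud of all genes has little slope (r = 0.0942), and the red genes, chosen from the same seedlings, nearly all lie in the lower left or upper right.

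The test of the difference itself, the family by extraction term, gave 0 genes in edgeR at an adjusted p-value under 0.05, with a smallest adjusted p-value of 0.198. An unadjusted p-value under 0.05 was seen in 2123 genes (9.32%). DESeq2 called 751 genes for the same term (3.3%). In edgeR the count of 2123 fell to 1333 without YORK-09-37. For each gene the 4 means of family by extraction were compared, and the mean farthest from the other 3 was recorded. Among the 2123 genes it was the early YORK-09 mean in 44.7%, the late HV-11 mean in 23.4%, the early HV-11 mean in 19.0% and the late YORK-09 mean in 12.95%. Over all genes tested these shares were 33.0%, 25.9%, 21.8% and 19.4%. The early YORK-09 seedlings are the only ones extracted on day 16, and the part of the day in these values cannot be told apart from that of the family.

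Between treatments, where each side holds an early and a late seedling of each family, the fold changes were more alike. The log2 fold changes of HV-11 over YORK-09 in 5-Azacytidine seedlings and in control seedlings had a Pearson r of 0.281 and a Spearman rho of 0.285 across 22772 genes, and 59.6% of genes had the same direction. Of 652 genes at an unadjusted edgeR p-value under 0.05 in 5-Azacytidine seedlings, 75.5% had the same direction in controls. Of 1284 such genes in controls, 74.5% had the same direction in 5-Azacytidine seedlings. Of the 155 genes that passed in both, 131 had the same direction and 24 the opposite one. These fits too hold only 2 seedlings of each family. Both sides share the extraction days, and whether this correlation differs from that between extractions was not tested. The family by treatment term gave 0 genes in edgeR, with a smallest adjusted p-value of 1.00, and 95 genes in DESeq2 (0.417%). An unadjusted edgeR p-value under 0.05 was seen in 550 genes (2.42%). The count of 550 became 912 without YORK-09-37, 901 without HV-11-40 and 871 without HV-11-33.

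A small set of genes was counted in 1 family and at or near 0 in the other. Genes with at least 10 counts in all 4 seedlings of a family and 3 or fewer in all 4 of the other numbered 27 (0.119% of those tested), 17 counted in HV-11 alone (0.0747%) and 10 in YORK-09 alone (0.0439%). All 27 were called by DESeq2, which follows from the choice and is no support. Their mean levels were modest, from 1.52 to 16.8 CPM with a median of 5.02 CPM for the HV-11 genes, and from 2.14 to 10.9 CPM with a median of 4.97 CPM for the YORK-09 genes. In 8 of the 27 every seedling of the lacking family had 0 counts. Genes just outside the rule, with 1 seedling of the lacking family above 3 counts, numbered 36 for HV-11 and 35 for YORK-09. Those with 1 seedling of the counted family under 10 counts numbered 34 and 31. With a seedling left out, the 27 genes became 44 without HV-11-05, 41 without HV-11-33, 52 without HV-11-34 and 40 without HV-11-40. They became 39 without YORK-09-03, 39 without YORK-09-08, 55 without YORK-09-10 and 42 without YORK-09-37. The rule asks less of 3 seedlings than of 4. Reads that mapped to several places had been removed, so a gene with a near-identical copy has an uncertain value here, and a count of 3 or fewer does not show that a gene is absent.

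The second HV-11 gene by mean CPM had 146, 134, 71 and 257 counts in the HV-11 seedlings, against 0 counts in each YORK-09 seedling. Its level was at least 49.0-fold higher in HV-11, taken against a floor of 3 counts in each YORK-09 library. It was counted in LAY-15-09, with 181 counts, and in no other LAY-15 seedling. The third HV-11 gene by mean CPM varied more, with 17, 107, 207 and 62 counts in the HV-11 seedlings, against 2, 0, 1 and 0 counts in the YORK-09 seedlings. The YORK-09 gene with the highest mean had 0, 0, 0 and 2 counts in the HV-11 seedlings, against 115, 136, 177 and 49 counts in the YORK-09 seedlings. The third YORK-09 gene by mean CPM had 0 counts in each HV-11 seedling, against 47, 71, 17 and 130 counts in the YORK-09 seedlings, a level at least 22.8-fold lower in HV-11 against the same floor.

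The LAY-15 seedlings, which took no part in the choice, were mostly divided over these genes. In 22 of the 27 genes at least 1 LAY-15 seedling had 10 counts or more and at least 1 had 3 or fewer, as was the case in 3012 of all genes tested (13.2%). The number of the 27 genes with at least 10 counts was 12 in LAY-15-03, 16 in LAY-15-09, 6 in LAY-15-30 and 6 in LAY-15-34. Most of these 27 genes were thus counted in some LAY-15 siblings and at or near 0 in others. The 13.2% is over all genes tested, of which 16131 had at least 10 counts in each of the 8 seedlings. The late LAY-15 seedlings had more of them than the early ones, with 1 control and 1 5-Azacytidine seedling at each extraction.

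**Figure D4:**
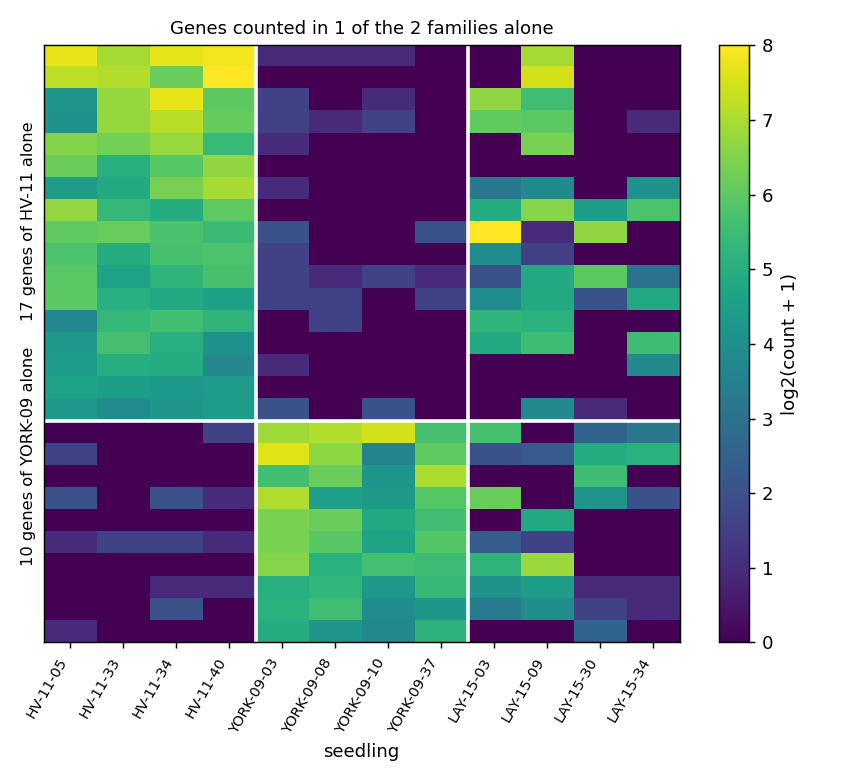
Counts of the 27 genes counted in 1 family alone (rows, log2 of count + 1 as colour) in each seedling (columns), with 17 HV-11 genes above and 10 YORK-09 genes below, ordered by mean CPM. The HV-11 and YORK-09 blocks are filled or empty by choice, while the LAY-15 columns are mixed in 22 of the 27 rows.

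Placed between the 2 families, LAY-15 was nearer to HV-11 in 52.7% of all genes tested by mean log2 CPM. It was nearer to HV-11 in 58.4% of the 514 DESeq2 genes, in 41.1% of those higher and in 72.4% of those lower in HV-11. In both directions LAY-15 was thus more often on the lower side. The LAY-15 mean lay between the means of the other families in 26.0% of all genes and in 73.3% of the DESeq2 genes, which were chosen for a wide gap. Of the 1166 genes without overlap, all 4 LAY-15 seedlings lay beyond the YORK-09 range on the HV-11 side in 260. In 180 they lay beyond the HV-11 range on the YORK-09 side. Both counts can include genes where LAY-15 lay past both families. In 4 other genes all LAY-15 seedlings lay between the ranges of the 2 families, and in the remaining 722 none of these held. Of the 1166 genes, 61.7% had the LAY-15 mean nearer to HV-11.

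Genes listed for the family difference stood next to each other in the order of identifiers more often than genes at large. The edgeR list is by unadjusted p-value, and no gene passed its adjusted test. The sources do not say what the parts of an identifier mean, and the order is used here as it stands. Among the 1668 genes of edgeR's list, 1652 had a tested neighbour. The next gene was in the list with the same direction in 178 (10.8%), and with the opposite direction in 47 (2.85%). Over all genes tested the next gene was in the list in a given direction in 3.66%. For the DESeq2 genes the share was 7.86% beside 1.14% over all genes, and for genes without overlap it was 8.76% beside 2.56%. In late and early seedlings alone the shares were 11.9% and 13.9%, beside 3.99% and 5.27%. Neighbouring genes that overlap could share reads, since the library kit does not mark strand, and neither the part of this nor the difference between these shares was tested.

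The 1668 genes formed 142 runs of neighbours with the same direction, 26 of them with 3 or more genes. The longest run held 6 genes with identifiers that start with QL01, all higher in HV-11, with log2 fold changes between 4.26 and 6.89. In 3 of the 6 the families did not overlap, and DESeq2 called 5. Their summed level was 9.56, 52.9, 77.3 and 31.5 CPM in the HV-11 seedlings, against 0.745, 0.246, 2.38 and 2.86 CPM in the YORK-09 seedlings. In LAY-15 the same sum was 57.5 and 37.6 CPM in the late seedlings and 0.198 and 10.4 CPM in the early ones. Its genes did not move as a unit there, since in LAY-15-34 the last gene of the run had 101 counts and the other 5 had 0 or 1. A run of 4 genes that start with QL08 was lower in HV-11 with little spread. Its sum was 101, 84.2, 120 and 116 CPM in the HV-11 seedlings, against 274, 307, 214 and 217 CPM in the YORK-09 seedlings. All 4 of its genes were without overlap between the families, with log2 fold changes between -1.57 and -0.84.

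Of the 27 genes counted in 1 family alone, 8 formed 4 pairs of neighbours. In 3 of the 4 pairs both genes were in the same state (10 or more counts, 4 to 9, or 3 or fewer) in all 4 LAY-15 seedlings. Of all 181 pairs of genes counted in the same family alone, neighbours or not, 12 (6.63%) were. Of 775 pairs of neighbours over all genes tested that were both divided among the LAY-15 seedlings, 166 (21.4%) were, and with 4 pairs no difference was tested. The pair that starts with QL05p000021 had 120 and 83 counts in LAY-15-09 and 0 counts in the other 3. A pair of YORK-09 genes had 16 and 36 counts in LAY-15-03 and 21 and 110 in LAY-15-09, and 1 or 0 counts in LAY-15-30 and LAY-15-34. A pair of HV-11 genes had 102 and 66 counts in LAY-15-03 and 46 and 62 in LAY-15-09, and 1 or 0 counts in the other 2. In the fourth pair the state was the same in 2 of the 4 seedlings.

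The share of genes at an unadjusted edgeR p-value under 0.05 also varied with the first part of the identifier. It was 13.1% (36 of 275) for identifiers that start with QL93, 22 higher and 14 lower in HV-11. For the other 12 prefixes it ran from 5.06% (QL12) to 9.85% (QL03). DESeq2 called 6.91% of the QL93 genes and between 0.949% and 3.46% of the others. The median of the mean level was 2.97 CPM for the QL93 genes and between 7.09 and 15.7 CPM for the other prefixes, and the part of this lower level in the share was not tested.

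**Figure D5:**
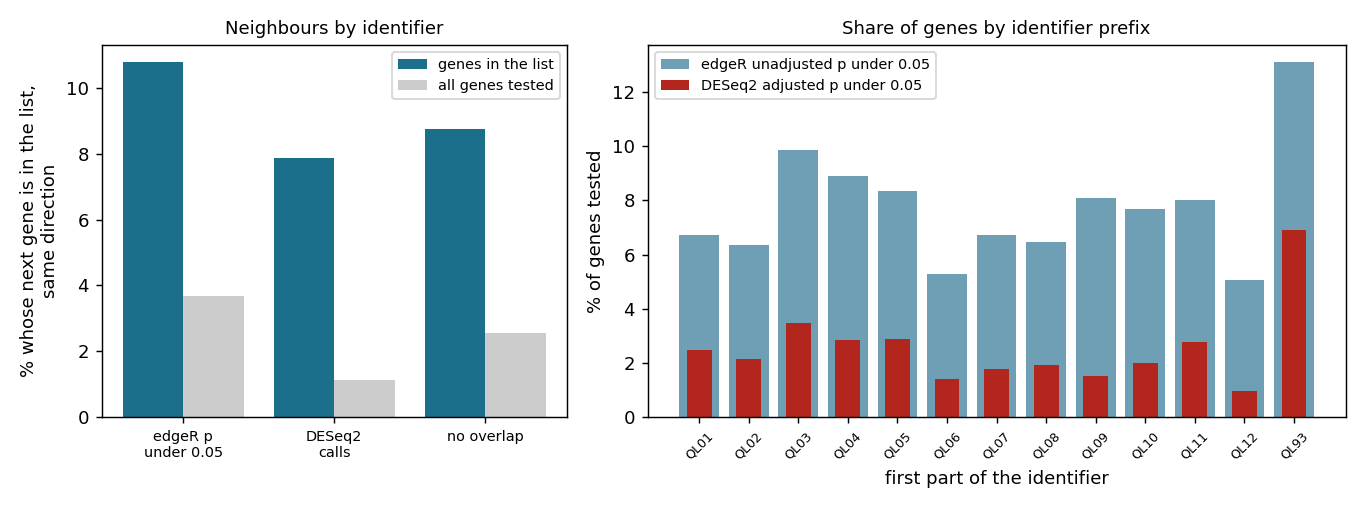
Left, percent of the genes in each list whose next gene by identifier is in the same list with the same direction (blue), beside the percent over all genes tested (grey), for edgeR (10.8% and 3.66%), DESeq2 (7.86% and 1.14%) and genes without overlap (8.76% and 2.56%). Right, percent of genes tested at an unadjusted edgeR p-value under 0.05 (wide bars) and called by DESeq2 (narrow bars) for each identifier prefix, with QL93 the highest at 13.1% and 6.91%.

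Over all genes, seedlings of different families were little farther apart than siblings. After DESeq2's variance stabilizing transformation, the distance between seedlings averaged 117 ± 6.40 within HV-11 (SD, 6 pairs), 121 ± 5.80 within YORK-09 (SD, 6 pairs) and 126 ± 10.3 between the families (SD, 16 pairs). The mean distance between families was 1.06 times that within them. Between families, early seedlings were 136 ± 3.86 apart and late seedlings 125 ± 10.8 (SD, 4 pairs each). With log2 CPM the means were 234 early and 222 late. With the 500 most variable genes the order was reversed, at 57.5 early and 58.7 late. Pairs share seedlings, so these SDs are not spreads of independent values. The nearest neighbour was of the same family for 4 of the 8 seedlings. The smallest distance of all, 103.7, was between HV-11-33 and YORK-09-37, both 5-Azacytidine seedlings of different families and days.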

How the data were processed

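RNA from leaves of 12 seedlings was sequenced from polyA-selected TruSeq libraries. The authors trimmed reads with Cutadapt 2.3, aligned them with STAR 2.7.1, removed multi-mapping reads and platform duplicates (SAMtools 1.9, Picard 2.20.3), and counted reads per gene with HTSeq 0.11.1. The deposited values are raw whole-number counts per gene with no normalization by the authors, and 0 columns were left unused. The strand setting and annotation are not given in the sources used here. Labels show separate seedlings, and no 2 of the 8 columns were alike (a chi-square statistic of 44.4 to 133 for each degree of freedom in the 28 pairs).

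For the 8 seedlings, genes with low counts were removed with filterByExpr (at least 10 counts, total of at least 15, family by treatment as groups). Libraries were scaled by TMM and tested with edgeR 4.0.16 (glmQLFit, glmQLFTest, R 4.3.3) in a model of treatment, early or late RNA extraction and family. P-values were adjusted by Benjamini-Hochberg over all 22772 genes. DESeq2 1.42.0 was the alternative, and its 442 empty adjusted p-values were not counted as calls. Standard errors of fold changes were approximated from edgeR's F statistic. CPM came from TMM over all 12 seedlings. Ratios of genes with few counts carry 95% intervals for counting error only. The genes described were, in each direction, the 10 with the smallest p-values, the 3 with the smallest p-values among genes with at least 10 counts in all 8 seedlings, and the 3 with the highest mean CPM among genes counted in 1 family alone, 25 genes in all. Members, lists and tests were chosen with earlier results of these data known. The scripts were tested on simulated data. Alternatives were other size factors, filters, covariates and sample subsets, and each seedling left out in turn.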

Additional observations from a re-analysis of the deposited data

Results flagged for a closer look

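In 45 sets of 4 seedlings (a named gene in 1 family), 3 held a seedling far from the other 3, and chance gives about 1 in 20. The seventh gene higher in HV-11 had 140.7 CPM in HV-11-05, beside 32.4 to 49.9 CPM in the other HV-11 seedlings. The eighth had 43.6 CPM in HV-11-40, beside 8.19 to 12.6 CPM in the other HV-11 seedlings. The fourth gene lower in HV-11 had 111 CPM in YORK-09-03, beside 31.3 to 39.1 CPM in the other YORK-09 seedlings. The family difference itself differed with RNA extraction in 751 genes and with treatment in 95 genes by DESeq2, while edgeR called 0 genes for both terms.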

How the results depend on the processing

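The families share no seedling numbers, so they were paired only by the 4 cells of treatment and extraction, 1 seedling of each family in each. With these cells as a block edgeR called 0 genes, and 1536 genes had an unadjusted p-value under 0.05. The count of edgeR calls was 0 in 18 of 20 alternative edgeR fits, and was 5 without covariates, 1 with treatment as the only covariate and 514 with DESeq2. At an unadjusted p-value under 0.05 the main 1668 genes became 1004 with a literal CPM filter, which tests fewer genes, and 652 in 5-Azacytidine seedlings alone, and ran from 1201 to 1692 with a seedling left out. The 514 DESeq2 genes became 326 with all 12 seedlings and early or late extraction, 272 with all 12 and 3 extraction days, 816 in early seedlings alone and 204 in 5-Azacytidine seedlings alone, all chosen after seeing the data, and ran from 316 (without YORK-09-03) to 634 (without HV-11-33). The cause was not tested. DESeq2 gave 751 genes for family by extraction and 95 for family by treatment, where edgeR gave 0, and the unadjusted edgeR counts with a seedling left out ran from 1333 to 2260 and from 505 to 912. Genes counted in 1 family alone numbered 8 with a limit of 0 counts and 2 with a minimum of 50 counts. With a seedling left out they numbered 39 to 55, and genes without overlap 1736 to 2310, both of which ask less of 3 seedlings than of 4. Over 517 values of the 25 described genes under the alternatives, 0 changed direction and 30 moved past the threshold, 24 of them with DESeq2. The 25 genes were chosen from the 8 seedlings that the alternatives reuse, so their kept direction follows largely from the choice. Their folds moved by over 1.5 times in 16 of 25 genes (9 smaller, 7 larger) with all 12 seedlings and 3 extraction days, in 7 to 10 with late, early, control or 5-Azacytidine seedlings alone, and in 0 to 4 under each other alternative.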
